A study of Canis lupus familiaris with 186 samples.

Results

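The genes described here are 42 genes of glycolysis and of the transcriptional response to low oxygen, followed across primary canine osteosarcomas. They were chosen by name, and a row of the deposited table belonged to the set when its gene identifier, without the number at its end, was on the list. All 42 were found among the 37952 genes of the table, and all 42 passed the filter on low counts that left 13422 genes for testing. The list holds 14 glycolytic enzymes, 26 other genes that low oxygen is known to induce or that act beside glycolysis, and the transcription factors HIF1A and EPAS1.

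Cells sense oxygen through the prolyl hydroxylases of the EGLN family, which mark the alpha subunits of hypoxia-inducible factors for degradation while oxygen is present. When oxygen falls, HIF1A and EPAS1 proteins accumulate, mostly without a change in their own transcripts, and induce genes for glucose uptake, glycolysis, lactate and acid export, vessel growth, mitophagy and collagen crosslinking. Many tumors also keep glycolysis high in the presence of oxygen, so that transcripts of this set carry both oxygen-dependent and oxygen-independent control. Chondrocytes live in tissue without vessels and use the same pathway in health.

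The samples were primary tumors of pet dogs with osteosarcoma, sequenced as bulk mRNA libraries of the DOG2 dataset. The labels place 93 dogs in the trial COTC021 and 93 in the trial COTC022, with 1 library per dog, and give the material of every library as tumor from a primary osteosarcoma. The trial is the only group in the labels, no normal bone was included, and the trials enrolled dogs of varied age, breed and sex. Per the study's methods, biopsies were taken before any treatment from appendicular tumors without visible metastases, and the dogs later received carboplatin after amputation, with or without rapamycin. The labels do not give the treatment arm. Each value is an average over tumor cells, stroma, vessels and blood cells in unknown proportions, and in such tissue fewer cells of a type and less RNA per cell cannot be told apart.

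Library totals ranged from 6587631 to 27420857 counts with a median of 10797162, which sets the precision of the low-count members. The column names of 50 libraries carry a doubled separator, and these had a median of 19440449.5 counts against 9851681 in the other 136. What the separator stands for is not stated, and results were repeated in both trials and in both library groups. The tissue was checked with marker genes. The summed level of 5 osteoblast markers ranged from 53.1 to 16722 CPM (the count per 1000000 counts of the library total), and that of 7 osteoclast markers from 76.4 to 38971 CPM. The 7 cartilage markers summed to between 10.7 and 66628 CPM, and 8 skeletal muscle markers to between 3.17 and 75971 CPM. The tumors thus differed widely in these markers, and whether tumor cells or admixed tissue expressed them cannot be told from bulk RNA.

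The members were measured with unequal certainty. In 38 of the 42 genes every library held at least 10 counts. CA9, a cell-surface carbonic anhydrase, had fewer than 10 counts in 55 libraries and none in 3, and CA12, a related membrane carbonic anhydrase, had fewer than 10 in 22 and none in 3. ADM, the vasoactive peptide adrenomedullin, fell under 10 counts in 3 libraries and ENO2, the neuron-type enolase, in 1. Expected counts divide reads that match several genes, and a value that is not whole shows such a division. Whole values in all 186 libraries were found for 37 members. GPI, glucose-6-phosphate isomerase, was not whole in 91.4% of libraries, SLC16A1, the lactate transporter MCT1, in 75.3%, ALDOA, the muscle-type aldolase, in 69.9%, and PDK1, a pyruvate dehydrogenase kinase, in 30.1%, so the values of these 4 genes rest in part on how reads were divided. The RefSeq spans of 16 members overlap another gene. SLC16A1 overlaps LRIG2 over 5071 bases, and SLC16A3 overlaps the protein-coding LOC119876620 over 5697 and CSNK1D over 410. Long noncoding RNA genes overlap HIF1A over 24150 bases, LOX over 11956 and PDK1 over 29763. Where the strand was not used in counting, the reads of such neighbours cannot be told apart.

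The members varied more between tumors than most genes. The median SD of log2 CPM over the 186 dogs was 0.83 for the members and 0.62 for all genes tested, and 35 members lay above the median gene. The glycolytic enzymes had a median SD of 0.65 and the 26 other hypoxia-response genes one of 0.94. CA12 had an SD of 2.53 and CA9 one of 2.12, more than 99.2% and 97.8% of genes. ENO2 followed with 1.55 and ADM with 1.54. At the other end, KDM3A, a histone demethylase, had an SD of 0.43, TPI1, triosephosphate isomerase, 0.48, and HK1, the widely expressed hexokinase, 0.49. The carbonic anhydrases thus spanned the widest range of the set, and the transcript levels of KDM3A, TPI1 and HK1 were the most even.

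**Figure D1:**
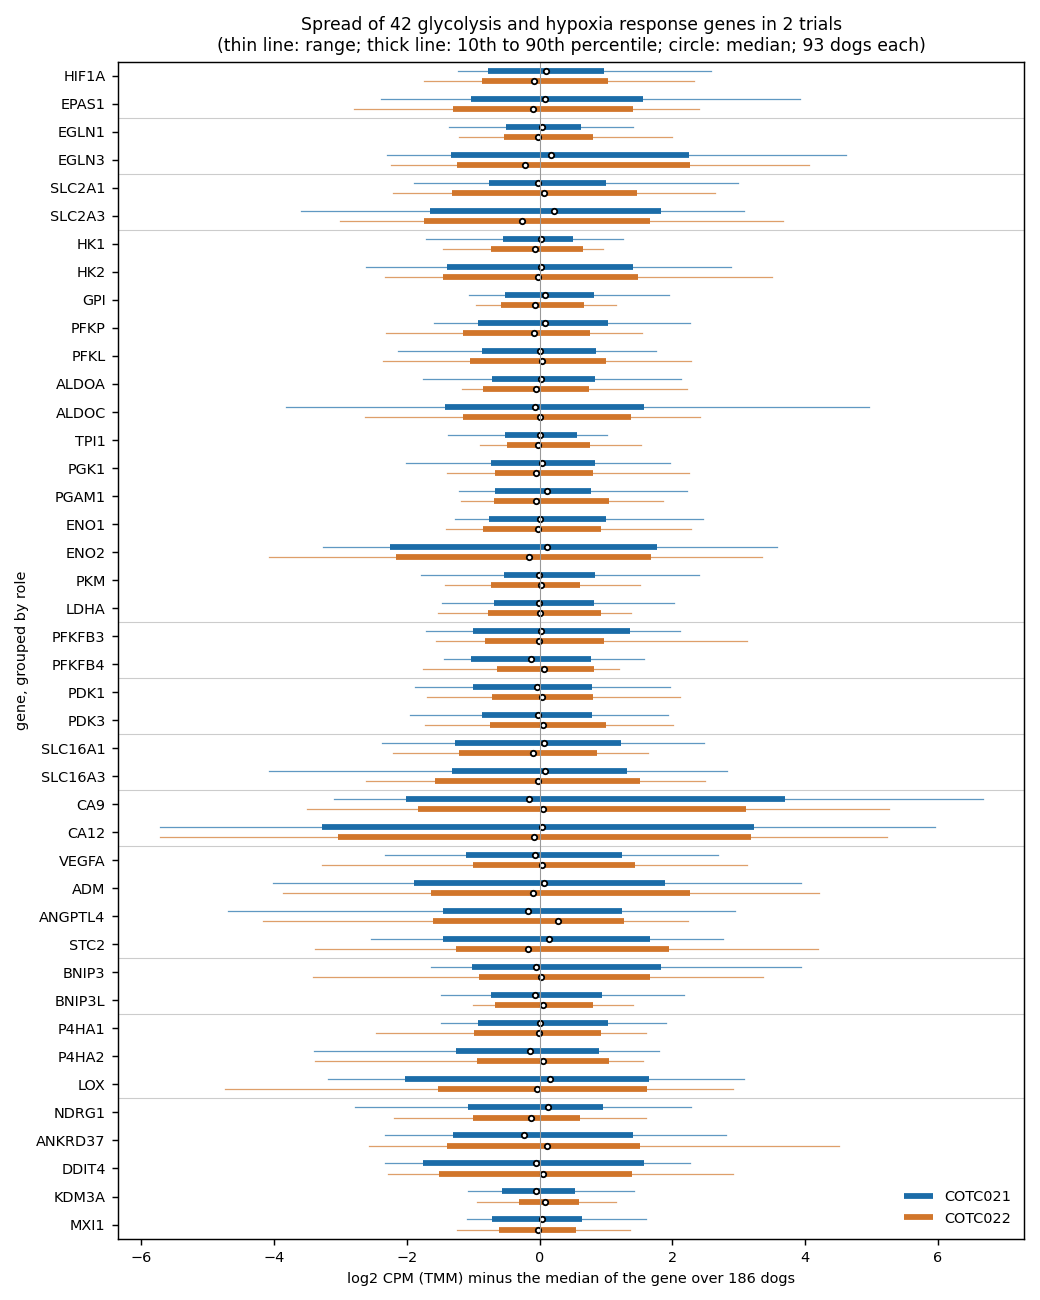
Spread of each of the 42 genes in the 2 trials. The x axis is log2 CPM (TMM-normalized) minus the median of that gene over 186 dogs, thin lines give the range, thick lines the 10th to 90th percentile and circles the median of 93 dogs per trial. CA12 and CA9 have the widest ranges, KDM3A and TPI1 narrow ones, and the ranges of the trials overlap for every gene.

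The trial comparison asks whether dogs enrolled in COTC022 differed from those in COTC021. CA9 ranged from 0.0544 to 154 CPM with a median of 1.57 CPM in COTC021, and from 0 to 63.1 CPM with a median of 1.57 CPM in COTC022. HIF1A ranged from 94.5 to 1333 CPM around a median of 277 CPM in COTC021, and from 71.4 to 1231 CPM around 237 CPM in COTC022. ANGPTL4, a secreted regulator of lipoprotein lipase, ranged from 7.13 to 1473 CPM around 152 CPM in COTC021 and from 9.36 to 848 CPM around 212 CPM in COTC022. The dogs of the trials overlapped over most of their range for these genes. No member was called by limma, 0 of 42, where 0.0149% of all genes tested were called in either direction. At an unadjusted p under 0.05, where 9.92% of all genes lay, there were 2 members. GPI, with a log2 difference of -0.15 ± 0.07 (SE), and KDM3A, with 0.13 ± 0.06 (SE), had unadjusted p-values of 0.0466 and 0.0354, and their limma adjusted p-values were 0.491 and 0.460. EdgeR's quasi-likelihood fit called 129 genes (0.961%) and DESeq2 91 (0.678%), and neither called a member. The largest difference by size was that of CA9, at -0.37 with a 95% interval from -1.03 to 0.28, which holds differences in both directions.

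Co-expression was described by Spearman's rho of log2 CPM over the 186 dogs, where all pairs share libraries and depth. Among the 14 glycolytic enzymes, 63 of 91 pairs had a rho over 0.3 and the median was 0.41. Among the 26 other hypoxia-response genes, 95 of 325 pairs did, with a median of 0.18, and between the classes 118 of 364 pairs did, with a median of 0.21. Over all pairs of genes tested, 3.79% had a rho over 0.3 and the median was -0.003. The share over 0.3 was 69.2% within the enzymes, 29.2% within the other genes and 32.4% between them, as a description of these dogs without a test. The mean z-score of the 14 enzymes and that of the 26 other genes had a Pearson r of 0.77 and a rho of 0.69 over 186 dogs, with r of 0.76 in COTC021, 0.80 in COTC022, 0.82 in the 50 libraries with the doubled separator and 0.76 in the others.

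The later steps of glycolysis held the closest pair. PGAM1, phosphoglycerate mutase, and ENO1, the widely expressed enolase, had a rho of 0.76 and each was the closest of all genes to the other. PGK1, phosphoglycerate kinase on the X chromosome (60517684 to 60539186 in UU_Cfam_GSD_1.0), had PGAM1 as its closest gene with a rho of 0.73. GPI and ALDOA had a rho of 0.76, although both counts were divided in most libraries. PKM, pyruvate kinase, and LDHA, lactate dehydrogenase A, had ENO1 as their closest member with 0.65 and 0.67. Outside the enzymes, SLC16A3, the lactate exporter MCT4, and BNIP3, a mitophagy receptor, had a rho of 0.75. Each had a rho over 0.3 with 26 members, and with 0.91% (SLC16A3) and 0.77% (BNIP3) of all genes. SLC2A3, the glucose transporter GLUT3, was closest to ADM with 0.70.

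Several members stood outside this block. ENO2 had a rho over 0.3 with 2 members and with 0.57% of all genes. Its median with the other glycolytic enzymes was 0.08, and its closest member was CA9, with 0.40. MXI1, a MYC antagonist, had a rho over 0.3 with 0 members and PFKFB4, a kinase-phosphatase that sets fructose-2,6-bisphosphate, with 1. Over all genes the shares above 0.3 were 1.56% for MXI1 and 3.99% for PFKFB4. EPAS1 went the other way, with a median of -0.26 with the glycolytic enzymes and its lowest rho, -0.50, with SLC16A1. PDK3, a pyruvate dehydrogenase kinase on the X chromosome, had -0.39 with SLC16A1. ANGPTL4 had a median of -0.02 with the enzymes and its closest member was PDK3, with 0.40.

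**Figure D2:**
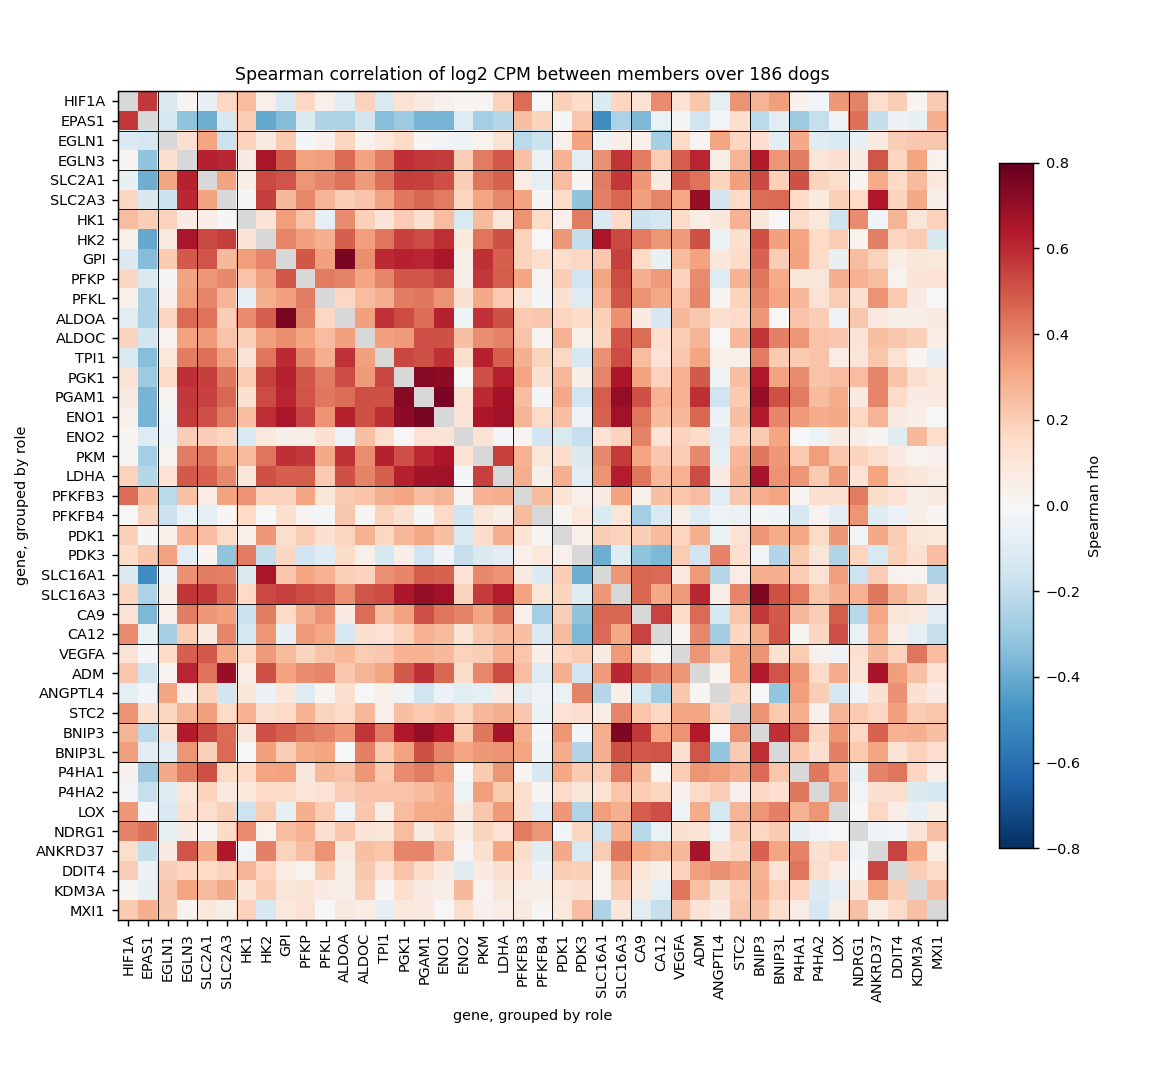
Spearman correlation of log2 CPM between the 42 genes over 186 dogs, with genes on both axes grouped by role and colour from blue (negative) to red (positive). A red block joins PGK1, PGAM1 and ENO1 with LDHA, SLC16A3 and BNIP3, while the EPAS1 row is blue against most enzymes and the ENO2 row is pale.

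Of the pairs of isoenzymes or related genes, 13 were compared over 186 dogs with permutation p-values from 100000 resamples, two-sided. BNIP3 and its relative BNIP3L had a Pearson r of 0.58 and a rho of 0.58, HIF1A and EPAS1 0.57 and 0.56, and CA9 and CA12 0.55 and 0.54. For these 3 pairs the permutation p was 1e-05 for r and for rho, the smallest that the resamples can give, and 1.86e-05 after Benjamini-Hochberg adjustment over the 13 pairs. Without the 2 dogs farthest from the median of the first gene, r was 0.57, 0.56 and 0.53. Within the trials and the groups of libraries r ranged from 0.52 to 0.61 for BNIP3 with BNIP3L, from 0.51 to 0.65 for HIF1A with EPAS1 and from 0.50 to 0.68 for CA9 with CA12.

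For other isoenzyme pairs the correlation was weak. HK1 with HK2, the hexokinase that low oxygen induces, had r = 0.12 and rho = 0.10 (permutation p = 0.0959 and 0.170, adjusted 0.113 and 0.184). ENO1 with ENO2 had r = 0.10 and rho = 0.11 (permutation p = 0.160 and 0.136, adjusted 0.160 and 0.161). PDK1 with PDK3 had r = 0.10 and rho = 0.04 (permutation p = 0.160 and 0.566, adjusted 0.160 and 0.566). For EGLN1 with EGLN3, which are prolyl hydroxylases of the oxygen sensor, r was 0.21 (permutation p = 0.00338, adjusted 0.00439) and rho 0.13 (permutation p = 0.0855, adjusted 0.111). The remaining 6 pairs, of phosphofructokinases, aldolases, glucose transporters, lactate transporters, collagen prolyl hydroxylases and PFKFB enzymes, had r between 0.25 and 0.48 with adjusted permutation p-values of at most 0.00078. Without the 2 dogs farthest from the median of the first gene, their r ranged from 0.22 to 0.47. Within the trials and library groups r fell to 0.04 for PFKFB3 with PFKFB4, in the 50 libraries with the doubled separator against 0.32 in the others, and to 0.20 for SLC16A1 with SLC16A3, in COTC021 against 0.42 in COTC022. The other 4 of these pairs had r between 0.23 and 0.65 in every such subset. For the weak pairs, r in the subsets ranged from 0.07 to 0.27 for HK1 with HK2, from 0.05 to 0.16 for ENO1 with ENO2, from 0.02 to 0.18 for PDK1 with PDK3 and from 0.16 to 0.36 for EGLN1 with EGLN3. Without the 2 farthest dogs, these were 0.17, 0.09, 0.05 and 0.18.

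High levels of many members fell in the same tumors. For each gene the 19 highest dogs, the top 10% of the cohort, were marked, and a dog was among them for a median of 2 members. In 30 dogs this held for 0 members, in 24 dogs for 10 or more and in 8 dogs for 20 or more. The same count was not made over all genes tested, so whether these dogs were also high for many other genes is not known. In the tumor of COTC021 dog 1409, 33 members were in the top 10%, and its SLC2A1, GPI, PFKP, PGAM1, ENO1, LDHA, BNIP3 and SLC16A3 were the highest of all 186 dogs. Its EPAS1 was at the 15.7th percentile and its PFKFB4 at the 42.2nd. In the tumor of COTC022 dog 1025, 30 members were in the top 10%. In the 8 dogs with 20 or more members in the top 10%, the mean z-score of the cartilage markers, in SD units, was 2.17 in dog 1409, 2.77 in dog 1025, 2.92, 1.45, 0.77, 0.16, -0.14 and -0.76. The cartilage markers were thus high in some of these tumors and near or below the average in others, and their part in the levels of the members was not tested. The dog with the highest CA9, COTC021 dog 0305, had P4HA1 at the top of all dogs and NDRG1 at the 9.19th percentile.

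CA9 was used as an anchor for the rest of the set, because it is a widely used target of the hypoxia-inducible factors. The gene lies on chromosome 11, from 52500820 to 52506421 in UU_Cfam_GSD_1.0. For every gene, limma estimated the log2 difference per 1 SD of CA9 over the 186 dogs, with the trial in the model. Of the 41 other members, 29 were higher where CA9 was higher and 4 lower, and 8 were not called. Over all genes tested, 15.2% were called higher and 15.4% lower. The median slope was 0.26 for the members and 0.003 for all genes. The signature GS-2, which the study took from earlier work on canine tumors, holds 3 of the members (CA9, CA12 and ADM).

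The 6 steepest slopes were those of CA12, ADM, EGLN3, BNIP3, LOX and SLC16A3. Slopes are in log2 units, and the SD of each of these genes was above that of at least 81.3% of genes. By rho with CA9 the order differed, and BNIP3 came first at 0.57, before CA12 at 0.54. PGAM1 (0.52) and BNIP3L (0.49), which are not among the 6, came next. The rest of the 6 had 0.48 (LOX), 0.46 (SLC16A3), 0.45 (ADM) and 0.41 (EGLN3), with further members between them. CA12 ranged from 0 to 473 CPM around a median of 8.33 CPM in COTC021 and from 0 to 303 CPM around 8.47 CPM in COTC022. Its slope was 1.38 ± 0.15 (SE), 2.60-fold per SD of CA9 (limma adjusted p = 1.93e-13). ADM ranged from 0.262 to 98.9 CPM around 7.39 CPM in COTC021 and from 0.344 to 118 CPM around 6.39 CPM in COTC022. Its slope was 0.88 ± 0.09 (SE, adjusted p = 3.53e-14).

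EGLN3, the oxygen sensor that is itself induced by low oxygen, ranged from 2.75 to 357 CPM around 16.9 CPM in COTC021 and from 2.75 to 214 CPM around 13.2 CPM in COTC022, and its slope was 0.75 ± 0.09 (SE, limma adjusted p = 3.64e-12). BNIP3 ranged from 35.5 to 1409 CPM around 96.9 CPM in COTC021 and from 9.10 to 880 CPM around 97.0 CPM in COTC022. Its slope of 0.71 ± 0.06 (SE) had an adjusted p of 2.67e-19. LOX, which crosslinks collagen, ranged from 21.3 to 1456 CPM around 189 CPM in COTC021 and from 7.07 to 1255 CPM around 167 CPM in COTC022, with a slope of 0.67 ± 0.09 (SE, adjusted p = 5.57e-10). SLC16A3 ranged from 1.42 to 187 CPM around 30.3 CPM in COTC021 and from 4.81 to 139 CPM around 27.5 CPM in COTC022, with a slope of 0.63 ± 0.07 (SE, adjusted p = 1.32e-12). For these 6 genes the dogs of the trials overlapped over most of their range, and the slope was called in both trials and in both library groups.

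**Figure D3:**
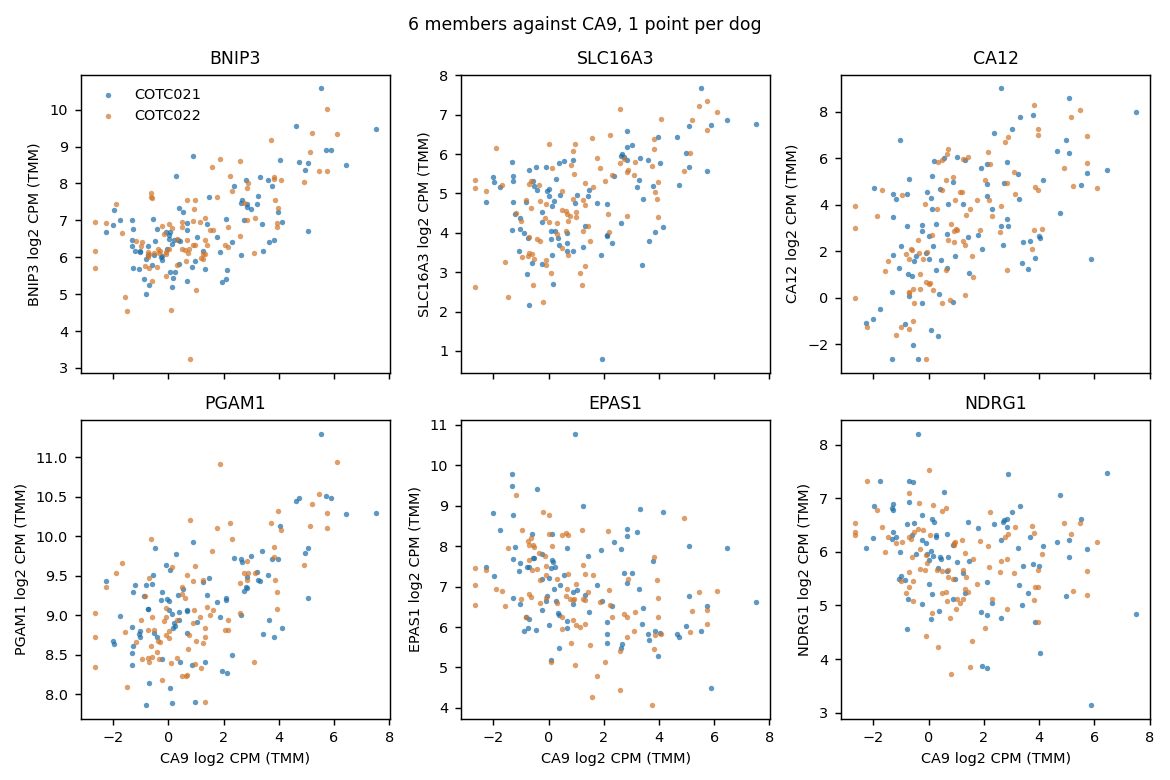
Levels of 6 genes against CA9, both in log2 CPM (TMM-normalized), with 1 point per dog and the trial as colour. BNIP3, SLC16A3, CA12 and PGAM1 rise with CA9 (slopes of 0.71, 0.63, 1.38 and 0.38 per SD), and EPAS1 and NDRG1 fall (slopes of -0.36 and -0.17), with wide scatter around each trend.

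Along the glycolytic pathway, 12 of the 14 enzymes were higher with CA9 and 0 lower. The shares over all genes were 15.2% higher and 15.4% lower, and the median slope of the enzymes was 0.27. Glucose entry moved with CA9 too, at 0.39 ± 0.06 (SE) for SLC2A1, the transporter GLUT1, and 0.47 ± 0.09 (SE) for SLC2A3. At the first phosphorylation, HK2 had a slope of 0.54 ± 0.07 (SE), while HK1 was not called, at -0.07 with a 95% interval from -0.14 to 0.004 (limma adjusted p = 0.151). The slopes were 0.12 for GPI, 0.26 for PFKP and 0.28 for PFKL, which are phosphofructokinases. At the aldolase step ALDOC had 0.53 ± 0.07 (SE), and ALDOA was not called, at 0.07 with an interval from -0.02 to 0.17. TPI1 had 0.13, PGK1 0.24, PGAM1 0.38, ENO1 0.34, PKM 0.18 and LDHA 0.30. ENO2 had 0.59 ± 0.10 (SE). At the hexokinase, aldolase and enolase steps the larger slope was thus that of HK2, ALDOC and ENO2. Their SD between dogs was also the larger of each pair, and the difference of the slopes was not tested. The rho with CA9 was -0.17 for HK1 and 0.42 for HK2, and 0.06 for ALDOA and 0.45 for ALDOC. For the enolases the order by rho was the reverse of that by slope, with 0.43 for ENO1 and 0.40 for ENO2.

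Around the pathway, both lactate transporters were higher with CA9, SLC16A1 with a slope of 0.42. Both mitophagy receptors were higher, BNIP3L with 0.35, and so were the 3 collagen-modifying enzymes, P4HA1 with 0.26 and P4HA2 with 0.19. Among the secreted factors, VEGFA, the main driver of vessel growth, had 0.25 ± 0.07 (SE, limma adjusted p = 0.00257), and STC2, a stanniocalcin, had 0.40. ANGPTL4 was not called, at -0.17 with an interval from -0.34 to -0.004 (adjusted p = 0.116). Of the pyruvate dehydrogenase kinases, PDK1 was higher at 0.16 and PDK3 lower at -0.21 ± 0.05 (SE, adjusted p = 6.55e-04). Neither PFKFB gene was higher, with 0.07 for PFKFB3 (not called) and -0.20 for PFKFB4. ANKRD37, a small ankyrin-repeat gene, had 0.38, and DDIT4, an inhibitor of mTORC1, was not called at 0.12. The 3 smallest slopes were those of MXI1, at -0.02 with an interval from -0.09 to 0.06, EGLN1, at 0.03 from -0.05 to 0.11, and KDM3A, at 0.05 from -0.01 to 0.11.

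The transcription factors differed. EPAS1 ranged from 22.2 to 1766 CPM around 122 CPM in COTC021 and from 15.9 to 637 CPM around 116 CPM in COTC022. Its slope on CA9 was -0.36 ± 0.08 (SE), the steepest of the 4 members that fell (limma adjusted p = 7.46e-05), and it was negative in both trials and both library groups. The call was lost in the 50 libraries with the doubled separator, where the slope was -0.21 (adjusted p = 0.515). HIF1A had a slope of 0.13 ± 0.05 (SE, adjusted p = 0.0396), and that call was lost in all 4 of these subsets, with adjusted p-values between 0.124 and 0.314. NDRG1, a gene used as a marker of low oxygen in many carcinomas, fell, with a slope of -0.17 ± 0.06 (SE, adjusted p = 0.0191). It ranged from 8.67 to 279 CPM around 64.1 CPM in COTC021 and from 12.9 to 168 CPM around 55.1 CPM in COTC022. The NDRG1 call was lost within COTC021, within COTC022 and in the 50 libraries with the doubled separator, where the slope was -0.05.

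**Figure D4:**
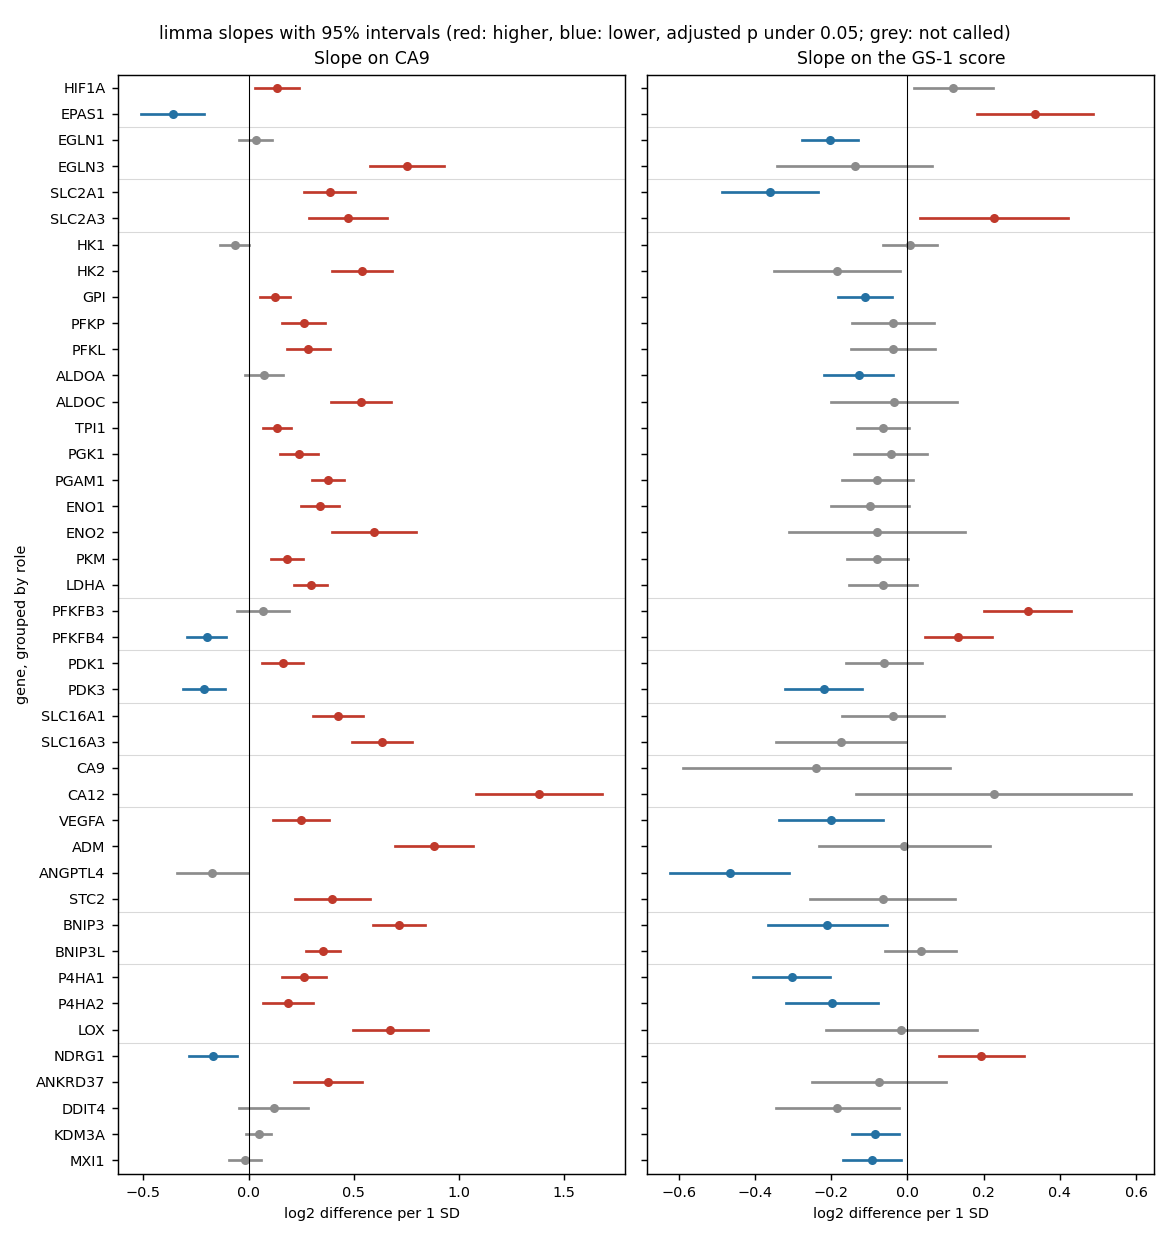
Slopes of the members on CA9 (left) and on the GS-1 score (right), as log2 difference per 1 SD with 95% intervals from limma over 186 dogs. Red marks higher and blue lower at an adjusted p under 0.05, and grey marks genes that were not called; CA9 is left out on the left, where 29 are red and 4 blue against 5 red and 12 blue on the right.

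Tissue markers moved with CA9, in the fit where 15.2% of all genes were higher and 15.4% lower. All 7 cartilage markers were higher, with a median slope of 1.07 and a range from 0.32 for MATN3 to 2.09 for HAPLN1. All 5 osteoblast markers were lower, with a median of -0.66, and so were all 6 osteoclast markers that passed the filter, with a median of -1.12. Of 9 endothelial markers, 1 was higher (VWF) and 6 lower, and of 14 leukocyte markers 0 were higher and 5 lower. None of the 7 proliferation markers was called by limma, nor of 8 skeletal muscle, 4 neutrophil and 2 adipocyte markers tested, and no red cell marker passed the filter. Over 186 dogs, CA9 had a Pearson r of 0.53 and a rho of 0.48 with the mean z-score of the cartilage markers, -0.41 and -0.41 with that of the osteoblast markers and -0.47 and -0.50 with that of the osteoclast markers (permutation p = 1e-05 each, the smallest possible, adjusted 2e-05 over 6 scores). With the endothelial markers they were -0.20 and -0.23 (permutation p = 0.00736 and 0.00197, adjusted 0.0110 and 0.00296), and with the proliferation markers 0.11 and 0.08 (permutation p = 0.124 and 0.306, adjusted 0.149 and 0.306). Without the 2 dogs farthest from the median of CA9, r was 0.51 for cartilage, -0.40 for osteoblast, -0.45 for osteoclast and -0.18 for endothelial markers. The r with cartilage was 0.56 in COTC021, 0.49 in COTC022, 0.75 in the 50 libraries with the doubled separator and 0.44 in the others. With osteoblast markers it was -0.12 in the 50 libraries and -0.51 in the others, and with endothelial markers -0.34 in COTC021 and -0.04 in COTC022.

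The slopes were therefore estimated again with these marker scores in the model, an alternative chosen after seeing the data. With the cartilage score, 28 members were higher and 3 lower, where 9.86% of all genes were higher and 10.5% lower, and the 12 glycolytic enzymes and CA12 (1.40), ADM (0.92), BNIP3 (0.71) and SLC16A3 (0.60) remained called. The calls of NDRG1, PFKFB4, P4HA1 and P4HA2 were lost in that model, while ANGPTL4 became lower at -0.36 and PFKFB3 higher at 0.24. With osteoblast and osteoclast scores, 28 members were higher and 1, EPAS1, lower at -0.39, where 9.87% of all genes were higher and 11.6% lower, and ALDOA joined the higher genes with 13 of 14 enzymes called. The calls of PDK1, HIF1A, NDRG1, PDK3 and PFKFB4 were lost in that model. Marker scores in bulk tumor RNA cannot separate tumor cells from admixed tissue, and beyond these models the part of either in the slopes was not tested.

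**Figure D5:**
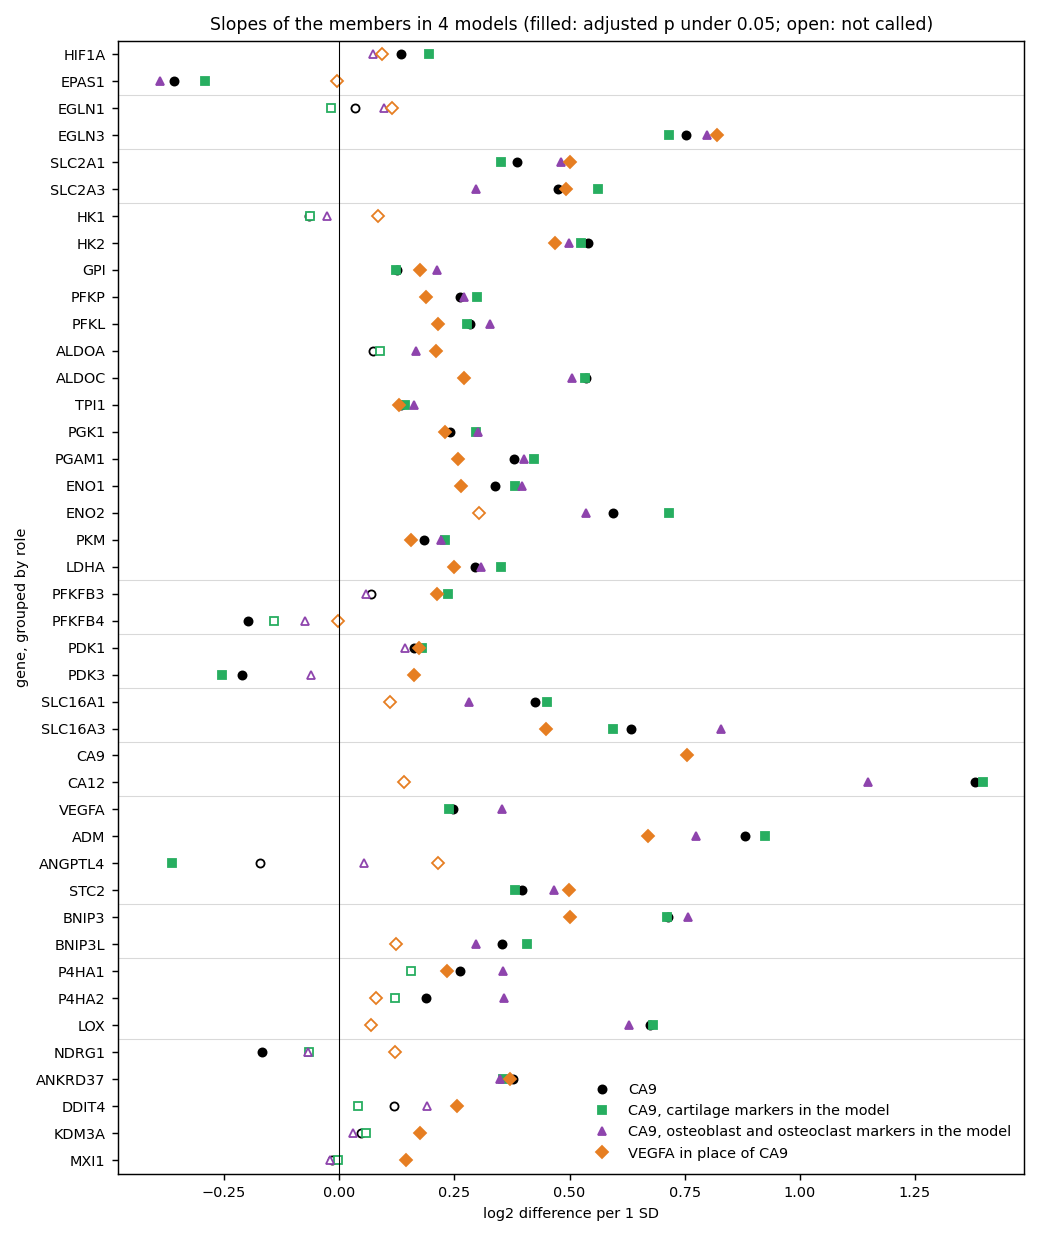
Slopes of the members in 4 limma models over 186 dogs, as log2 difference per 1 SD of CA9, of CA9 with cartilage markers in the model, of CA9 with osteoblast and osteoclast markers in the model, or of VEGFA in place of CA9. Filled symbols had an adjusted p under 0.05; EGLN3, HK2, SLC16A3, ADM and BNIP3 stay filled on the right in all 4 models, and PDK3 changes side with VEGFA.

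PGK1 and VEGFA, in place of CA9, gave 32 and 28 higher members, with some changes in direction. With PGK1 in place of CA9, 32 of 41 members were higher and 1, EPAS1, lower at -0.32, against 10.5% of all genes higher and 10.6% lower. The markers that moved with PGK1 differed from those of CA9, as all 7 proliferation markers were higher (median slope 0.24), 8 of 9 endothelial (median -0.31) and 2 of 5 osteoblast markers were lower, and the cartilage, osteoclast and leukocyte markers were not called. Their part in the slopes on PGK1 was not tested. With VEGFA in place of CA9, 28 of 41 were higher and 0 lower, against 3.36% of all genes higher and 3.82% lower, and EPAS1 was at -0.004. With VEGFA, 1 of 7 cartilage and 1 of 5 osteoblast markers were higher, and 2 of 9 endothelial, 3 of 14 leukocyte and 1 of 2 adipocyte markers lower. CA9 itself had a slope of 0.89 on PGK1 and 0.76 on VEGFA. Of the 4 members that fell with CA9, EPAS1 was called lower with PGK1, and none of the 4 was called lower with VEGFA. NDRG1 had 0.18 on PGK1 (limma adjusted p = 0.0183) and 0.12 on VEGFA (adjusted p = 0.200), PDK3 had 0.05 and 0.16 (adjusted p = 0.526 and 0.0401), and PFKFB4 had 0.05 and -0.003. ENO2 had -0.03 on PGK1, the only member called with CA9 whose slope turned from positive to negative. Members higher with CA9 and not called with VEGFA included LOX, CA12, SLC16A1 and BNIP3L, at 0.07, 0.14, 0.11 and 0.12. With VEGFA, 1 of the 3 collagen-modifying enzymes was called, and 0 of the 2 transcription factors were, with HIF1A at 0.09.

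Lists of neighbouring pathway genes were read from the same CA9 fit, where 15.2% of all genes were higher and 15.4% lower. Of 35 further genes that low oxygen induces, 30 were tested, 19 were higher and 2 lower, with a median slope of 0.20. TMEM45A had 0.52, ERO1A, an oxidase of protein folding, 0.49, HILPDA, a lipid droplet protein, 0.46 and AK4, a mitochondrial adenylate kinase, 0.30, while PDGFB had -0.31. Of 25 other glycolysis genes, 16 were tested, 4 were higher and 3 lower, among them GAPDH, which catalyses the step between TPI1 and PGK1, at 0.20 and PFKFB2 at -0.23. Of 15 genes of the HIF machinery, 14 were tested, with ARNT, the shared beta subunit, higher at 0.10 and CITED2, an inhibitor of HIF transcription, lower at -0.14. The median slope of the machinery was -0.001, beside 0.003 for all genes.

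By likeness over all genes tested, the genes with the highest rho with CA9 over 186 dogs included HAPLN1 (0.63), C1QTNF3 (0.62), NDUFA4L2 (0.61), ROR2 (0.60), SIX4 (0.59), BNIP3 (0.57) and ERO1A (0.56). HAPLN1 is a link protein of cartilage matrix and NDUFA4L2 a mitochondrial protein induced by low oxygen. Among these 7, BNIP3 is the single member. The neighbours of further members were looked at after their values were seen. Of the 12 genes closest to PGK1, 10 were members, led by PGAM1 (0.73), ENO1 (0.72) and SLC16A3 (0.65). Of the 12 closest to VEGFA, 3 were members (SLC2A1 with 0.49, EGLN3 with 0.48 and KDM3A with 0.43), and ESM1, a gene of endothelial tip cells, came first with 0.49. None of the 12 closest to EPAS1, NDRG1, PFKFB4 or ANGPTL4 was a member. EPAS1 was closest to GAB2 (0.73) and SERPING1 (0.69), with the angiopoietin receptor TEK at 0.66. NDRG1 was closest to TTC7A (0.64), PFKFB4 to GLIPR1 (0.59), with the myeloid factor SPI1 at 0.56 and the osteoclast protease CTSK at 0.54, and ANGPTL4 to PTH1R (0.58) and ALPL (0.57), which are expressed by osteoblasts.

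The GS-1 score is the mean z-score of the 27 genes used here of the signature GS-1, also taken from that earlier work and mostly made of leukocyte genes, and holds 0 of the members. It was used as a number per dog, and limma estimated the log2 difference per 1 SD of the score with the trial in the model. All 14 leukocyte markers tested were higher with it, with a median slope of 1.10, of which 2 (CD53 and ITGAL) are part of the score, and so were all 4 neutrophil markers tested, with 0.78. Of the 42 members, 5 were higher and 12 lower, and 25 were not called. Over all genes tested, 22.3% were called higher and 26.2% lower. The 11.9% and 28.6% of members were below and near these shares, and the median slope of the members was -0.08 against -0.02 for all genes. The correlation of the score with CA9 over 186 dogs was weak, with r = -0.10 and rho = -0.08 (permutation p = 0.178 and 0.295, adjusted 0.178 and 0.306 over 6 scores). Without the 2 dogs farthest from the median of CA9, r was -0.11, and it was -0.27 in the 50 libraries with the doubled separator and -0.03 in the others.

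Of the 14 glycolytic enzymes, 2 were called with the score, where 22.3% of all genes were higher and 26.2% lower. None of the 14 was higher by limma, 2 were lower (ALDOA at -0.13 and GPI at -0.11, both with divided counts) and 12 were not called, with slopes between -0.18 and 0.006. HK2, at the lower end, had an adjusted p of 0.0603 by limma, and ADM and LOX had slopes of -0.01 and -0.02. This depended on the model. With the score taken from TMM log2 CPM, 17 members were lower, where 26.8% of all genes were, and HK2 (-0.21), ENO1 (-0.13), PGAM1 (-0.11), PKM (-0.10) and TPI1 (-0.08) joined them. DESeq2 called 16 lower, where 30.4% of all genes were, with HK2 at -0.24 and ENO1 at -0.14, and it called CA12 higher at 0.61, where limma gave 0.23 with an interval from -0.14 to 0.59. Other models gave fewer calls. With the endothelial score in the model 4 members were higher and 8 lower, where 19.4% of all genes were higher and 23.1% lower, and with the proliferation score 4 and 10, where 18.3% and 20.9% were. In both, ALDOA (-0.08 and -0.07) and GPI (-0.06 in each) lost their calls, so that 0 of the 14 enzymes were called.

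Members lower with the score included secreted and collagen-modifying genes. ANGPTL4 had the steepest slope, -0.47 ± 0.08 (SE, limma adjusted p = 1.91e-07). SLC2A1, which ranged from 13.9 to 410 CPM around 57.4 CPM in COTC021 and from 11.5 to 337 CPM around 59.1 CPM in COTC022, had -0.36 ± 0.06 (SE, adjusted p = 5.80e-07). P4HA1 ranged from 130 to 1200 CPM around 394 CPM in COTC021 and from 66.2 to 1099 CPM around 388 CPM in COTC022, and had -0.30 ± 0.05 (SE, adjusted p = 1.42e-07). The dogs of the trials overlapped over most of the range of these genes, and the slope of each was called in both trials and in both library groups. ANGPTL4 lost its call once osteoblast and osteoclast scores were in the model, at -0.18. PDK3 had -0.22, BNIP3 -0.21, and EGLN1, VEGFA and P4HA2 -0.20 each, with MXI1 and KDM3A at -0.09 and -0.08. The calls of BNIP3 and MXI1 were lost in all 4 subsets of the libraries.

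The members higher with the score were EPAS1, PFKFB3, SLC2A3, NDRG1 and PFKFB4. EPAS1 had a slope of 0.34 ± 0.08 (SE, limma adjusted p = 1.37e-04), and with the proliferation score in the model it was 0.16 and no longer called. PFKFB3, the isoform with the highest kinase activity, ranged from 19.8 to 314 CPM around 70.2 CPM in COTC021 and from 25.8 to 636 CPM around 67.1 CPM in COTC022, and had 0.32 ± 0.06 (SE, adjusted p = 1.60e-06). NDRG1 had 0.19 and PFKFB4 0.13. SLC2A3 ranged from 8.02 to 638 CPM around 97.5 CPM in COTC021 and from 10.7 to 1067 CPM around 70.7 CPM in COTC022, and had 0.23 ± 0.10 (SE, adjusted p = 0.0483). The trials overlapped over most of the range of these genes too. HIF1A was not called, at 0.12 with an interval from 0.02 to 0.22 (adjusted p = 0.0506). EPAS1, NDRG1 and PFKFB4 were thus lower with CA9 and higher with the GS-1 score, and the slopes of the glucose transporters SLC2A1 and SLC2A3 on the score were -0.36 and 0.23. The call of SLC2A3 was kept in 8 of 16 alternatives, while that of SLC2A1 was kept in all 16.

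Tissue markers also moved with the GS-1 score. Of 7 cartilage markers 6 were lower (median slope -0.84), of 5 osteoblast markers 4 were lower (median -0.79), of 9 endothelial markers 7 were higher (median 0.19), and all 7 proliferation markers were lower (median -0.23). Of 6 osteoclast markers, 2 were higher. The 8 skeletal muscle markers were not called, and of 2 adipocyte markers 1 was higher. With the osteoblast and osteoclast scores, 2 members, EPAS1 and PFKFB3, remained higher and 20 were lower, where 16.4% of all genes were higher and 16.1% lower. ENO1 (-0.20), PGAM1 (-0.22), HK2 (-0.30), LDHA (-0.14) and SLC16A3 (-0.37) were among the lower members in that model, and SLC2A3 was at -0.06 (limma adjusted p = 0.702). The other lists were read from the fit on the score without added marker scores, where 22.3% of all genes were higher and 26.2% lower. Of 30 further hypoxia-induced genes tested, 6 were higher, led by HMOX1, heme oxygenase, at 0.68 and RAB20 at 0.66. The 12 lower genes were led by TMEM45A at -0.34. Of 16 other glycolysis genes, 3 were higher, with HK3, a hexokinase of myeloid cells, at 0.79, and 6 lower, and of 14 genes of the HIF machinery 0 were higher and 2 lower.

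Differences of the slopes between trials or between groups of libraries were tested as interactions over all genes. No member was called for either score, by limma, in the 4 interactions tested, where 0%, 0%, 0% and 0.00745% of all genes were called. At an unadjusted p under 0.05, where 2.93% (CA9) and 2.79% (score) of all genes lay by trial and 6.64% and 7.15% by group of libraries, there were 2 members, TPI1 for CA9 by trial, with 0.16 ± 0.07 (SE, p = 0.0166, limma adjusted p = 1.000), and LOX for the GS-1 score by group of libraries, with -0.51 ± 0.21 (SE, p = 0.0190, adjusted p = 0.572).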

How the data were processed

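Per the labels and the study's methods, the authors sequenced stranded, poly(A)-selected libraries, mapped reads with STAR 2.7.0f to the canine build GSD_1.0 and quantified genes with RSEM 1.3.1. The deposited values are expected counts, without normalization, of which 3.07% were not whole. Whether counting used the strand is not given in the sources used here. The values were rounded to whole numbers. Of 198 columns, 186 matched a sample label, and the other 12 were not used. Libraries ranged from 6587631 to 27420857 counts.

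Low genes were removed by the filterByExpr function of edgeR 4.0.16, at a minimum count of 10, a proportion of 0.5 and a large-group size of 5. TMM factors and the voom weights of limma 3.58.1 then entered linear models in R 4.3.3, with Benjamini-Hochberg adjustment over all genes tested and a threshold of 0.05. Each fit has 1 library per dog, so dogs are the replicates. The GS-1 score used quantile-normalized log2(CPM + 2). The log2 CPM of CA9 and of the correlations used TMM and a prior count of 2. The fits were tested on simulated data. Intervals are the slope ± 1.96 SE. Correlations used Python 3.11.15, numpy 2.4.6, scipy 1.17.1 and pandas 2.3.3, and figures matplotlib 3.10.9.

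Alternatives were edgeR's quasi-likelihood fit, DESeq2 1.42.0, upper-quartile normalization, no low-count filter, a covariate for the form of the column name, each trial and each group of libraries alone, other anchors and added scores. Members and gene lists were chosen with earlier results of these data known. Named with full statistics were, per fit, the 6 called members with the largest slope, HIF1A, EPAS1, the 3 members with the smallest CA9 slope, and the 8 genes most like CA9, of which 1 is not reported here, and all members are accounted for by role. Gene positions come from RefSeq (UU_Cfam_GSD_1.0). GS-1 clusters, disease-free interval and survival were not analysed here.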

Additional observations from a re-analysis of the deposited data

How the results depend on the processing

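The trial comparison called 0 members under each of its alternatives. With the GS-1 score, 1 member was higher and 5 lower in the 50 doubled-separator libraries, where 1965 and 1309 of 13422 genes were. In the other 136, 4 members were higher and 6 lower, where 2298 and 2313 genes were. In COTC021 1 member was higher and 7 lower, where 1879 and 1633 genes were, and in COTC022 3 and 7, where 2317 and 2341 were. With the osteoblast and osteoclast scores added, 2 members were higher and 20 lower, and the slope of SLC2A3 became -0.060. With CA9, 14 members were higher and 1 lower in the 50 libraries with the doubled separator, where 267 and 271 of 13421 genes were. The members lower with CA9 numbered 2 in COTC022, 1 with PGK1 as anchor, 0 with VEGFA as anchor and 1 with the osteoblast and osteoclast scores. With PGK1 as anchor the slopes of NDRG1 (0.18), PFKFB4 (0.053), PDK3 (0.052) and ENO2 (-0.026) had the other sign, and with VEGFA as anchor those of NDRG1 (0.12) and PDK3 (0.16). Fits within a trial or a group of libraries hold fewer dogs, and otherwise the cause was not tested. The models with marker scores and those without COTC021 dog 1409 were chosen after seeing the data. Without that dog, 29 members were higher and 4 lower with CA9, where 2017 and 2029 of 13421 genes were. With the GS-1 score, 6 members were then higher and 12 lower, where 2987 and 3507 of 13422 genes were. Over all genes, the trial calls numbered 2 with limma, 129 with edgeR and 91 with DESeq2. The 2039 genes higher and 2063 lower with CA9 became 267 and 271 in the libraries with the doubled separator, 1114 and 1152 in COTC021, 724 and 831 in COTC022, 451 and 513 with VEGFA as anchor, and 5761 and 2507 without the low-count filter, where 69.7% of calls were higher against 49.7%. With the cartilage score 1323 were higher, and with the bone scores 1324. The 2994 higher and 3513 lower with the GS-1 score became 1965 and 1309 in the libraries with the doubled separator (60.0% of calls higher against 46.0%), 1879 and 1633 in COTC021, 2207 and 2162 with the bone scores, and the lower genes 2313 in the other 136 libraries and 2341 in COTC022. Of the 33 members called with CA9, 14 kept their call in each of 15 alternatives that left CA9 as anchor, and of the 17 called with the GS-1 score, 3 (EGLN1, P4HA1 and SLC2A1) did in each of 16. No paired analysis was possible because replicate numbers name single dogs, each in 1 trial. At the depth of these libraries the log2 values of CA9 and CA12 rest on few counts in many dogs, and levels were not compared between genes because transcript lengths were not used here.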
